A study of Mus musculus with 8 samples.

Results

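S100a10, also called p11, was examined in the P1 mouse cortex together with 9 genes whose proteins bind it or belong to its family, Anxa2, Ahnak, S100a1, S100a6, S100a11, S100a13, S100a16, S100b and Anxa5. S100a10 was chosen by its lower level in the mutant cortex, and the other 9 genes were chosen by name and role around it, with no value of their own in the rule. The 10 genes were found by their Ensembl identifiers among 48709 genes listed per library, of which 30127 had at least 1 count in any library. All 10 passed edgeR's filter on low counts, which kept 16287 genes.

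RNA-seq of the whole P1 cortex was available for 4 control and 4 dcKO_Nex-Cre libraries, all on a C57BL6/J background. The dcKO_Nex-Cre mutants carry floxed alleles of BAF155 (Smarcc1) and BAF170 (Smarcc2), scaffold subunits of the BAF chromatin remodelling complex, that are deleted by Nex-Cre, and the controls are BAF155fl/+, BAF170fl/+ and Cre negative. Nex-Cre acts in postmitotic projection neurons, so glia, vessels, meninges and interneurons of the mutant tissue keep both genes, and the Cre allele itself is present in the mutant group only. The labels give Control and dcKO, the name of the Cre line comes from the study's methods, and the labels do not say whether the libraries came from separate animals, so that p values measure the spread between these libraries. In bulk tissue, fewer cells of a type and less RNA per cell cannot be told apart.

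S100 proteins are small proteins that mostly sense calcium and act by binding other proteins. S100A10 has lost calcium binding and lies under the plasma membrane as a dimer that holds a pair of annexin A2 molecules through their N-terminal ends, and the giant scaffold AHNAK docks on this complex. In the cortex S100a10 is known as a marker of a class of layer 5 projection neurons, where p11 brings serotonin receptors and several ion channels to the cell surface. Anxa2, Ahnak, S100a6 and S100a11 are known for high levels in vascular, meningeal and other non-neuronal cells, and S100b for glia.

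The coding sequences that encode both sides of the p11 and annexin A2 contact are shown first, since the results turn on these partners. The sequences were read from the reference transcripts of GENCODE M21 (GRCm38, the build that the processing notes call mm10). The S100a10 coding sequence spans 294 bases, or 97 codons before the stop codon, on the plus strand of chromosome 3, with the start and stop codons in capitals. For Anxa2, on the plus strand of chromosome 9, the first 60 bases are given, with codons 2 to 15, which encode the N-terminal stretch bound by S100A10, in capitals.
S100a10: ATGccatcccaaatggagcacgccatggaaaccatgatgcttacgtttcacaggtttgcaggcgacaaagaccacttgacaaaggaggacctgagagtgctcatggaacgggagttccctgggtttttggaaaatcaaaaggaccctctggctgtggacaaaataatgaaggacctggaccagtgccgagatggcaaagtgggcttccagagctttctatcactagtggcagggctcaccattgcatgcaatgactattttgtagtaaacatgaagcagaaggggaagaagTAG
Anxa2: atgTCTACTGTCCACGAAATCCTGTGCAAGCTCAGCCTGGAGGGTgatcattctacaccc

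Total counts per library ranged from 17958641 to 35191912. Values are given as CPM, the counts scaled by each library's size after edgeR's TMM normalization, and changes as log2 fold changes of the dcKO_Nex-Cre over the control cortex from edgeR's quasi-likelihood test with Benjamini-Hochberg adjustment over all 16287 genes. Lane tag 2 was shared by the 4 controls and by mutant replicates 1 and 2, and lane tag 8 belonged to mutant replicates 3 and 4 alone, so that lane and group are partly confounded. Mitochondrial genes took 2.33% to 6.87% of the counts, with the highest share in control replicate 2 and the next in mutant replicate 4 (6.15%). The targeted genes were read first. Smarcc2 was at 456, 486, 478 and 429 CPM in the control and at 241, 292, 241 and 278 CPM in the dcKO_Nex-Cre libraries, without overlap (log2 fold change -0.81, standard error 0.089, adjusted p = 0.00267 from edgeR). Smarcc1 was at 139 to 164 CPM in the control and 93.0 to 122 CPM in the mutant libraries, also without overlap (log2 fold change -0.53, standard error 0.099, adjusted p = 0.0348 from edgeR). The Smarcc1 call was lost when any of the 4 control libraries or dcKO_Nex-Cre replicate 1 or 3 was left out, with adjusted p from 0.0784 to 0.132, within lane tag 2 (0.0752) and with the replicate number as a block (0.0578).

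The S100a10 transcript was at 69.8, 101, 67.9 and 72.2 CPM in control replicates 1 to 4 and at 26.5, 30.9, 27.4 and 25.9 CPM in dcKO_Nex-Cre replicates 1 to 4. Every mutant library lay below every control library, and control replicate 2 stood above the other controls. The group means were 77.7 ± 15.5 CPM (SD, n = 4) and 27.7 ± 2.26 CPM (SD, n = 4), which left 35.6% of the control level. The log2 fold change was -1.49 (standard error 0.13, 95% interval -1.77 to -1.20), resting on 461 to 1841 counts per library, and it ranked at position 33 from the lowest among the genes tested. The values of this contrast are those that chose the gene, and no test is given for them. Among all genes tested, 0.510% were called lower and 0.375% higher at an adjusted p under 0.05. S100a10 (ENSMUSG00000041959) lies on chromosome 3 of GRCm38 from 93555080 to 93564643 on the plus strand, and no other annotated gene overlaps it. Without control replicate 2 its log2 fold change was -1.33, and within lane tag 2 it was -1.43.

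**Figure D1:**
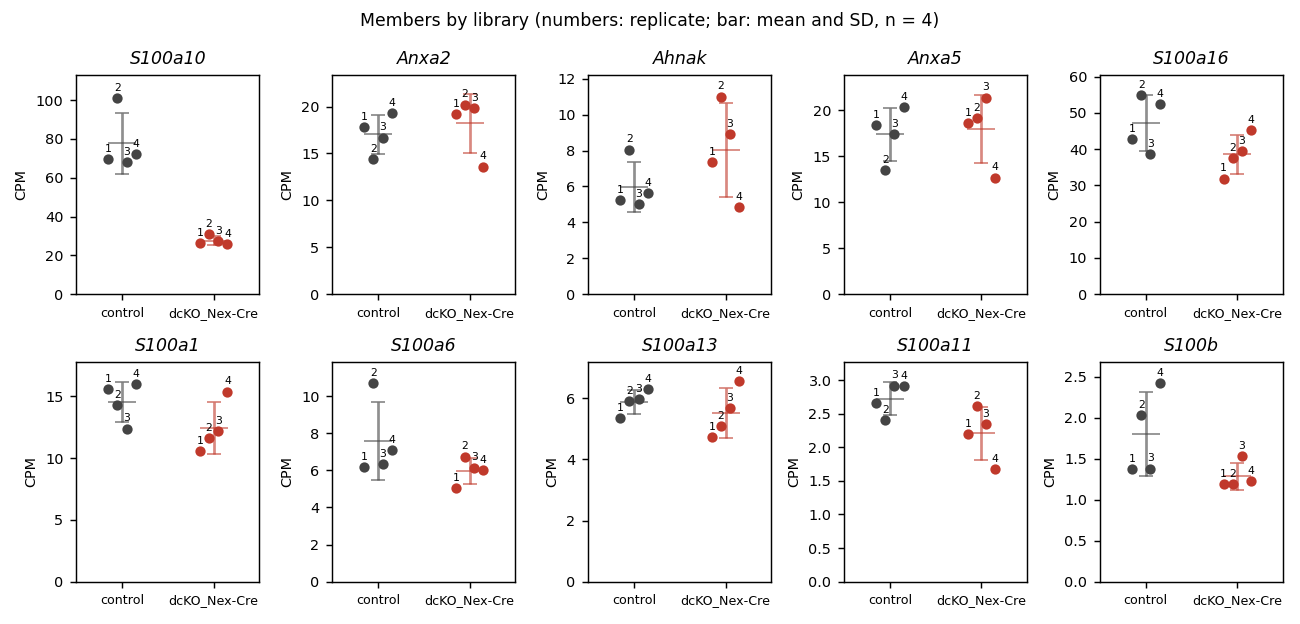
CPM of the 10 genes in each library of the P1 cortex, control in grey and dcKO_Nex-Cre in red, with the replicate number beside each point and bars for the mean and SD (n = 4). S100a10 is the one gene whose mutant libraries (25.9 to 30.9 CPM) all lie below the controls (67.9 to 101 CPM), whereas the groups of the other 9 genes overlap.

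Anxa2, the annexin that S100A10 binds, was not called lower. Anxa2 (ENSMUSG00000032231, chromosome 9, 69453620 to 69491795) was at 17.8, 14.4, 16.7 and 19.3 CPM in the control and at 19.2, 20.2, 19.8 and 13.6 CPM in the dcKO_Nex-Cre libraries. The groups overlapped, since dcKO_Nex-Cre replicate 4 was the lowest of all 8 libraries. The log2 fold change was 0.098 (95% interval -0.20 to 0.40, adjusted p = 0.776 from edgeR). Gm16144, an antisense gene with 0.4 counts per library on average, shares 98 exon bases with Anxa2.

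Ahnak, the scaffold that docks on the p11 and annexin A2 complex, was at 5.22, 8.05, 5.01 and 5.64 CPM in the control and at 7.36, 11, 8.91 and 4.83 CPM in the dcKO_Nex-Cre libraries. The groups overlapped, with both the lowest and the highest library in the mutant group. The log2 fold change was 0.44 (95% interval -0.086 to 0.96, adjusted p = 0.439 from edgeR). Ahnak (ENSMUSG00000069833) lies on chromosome 19 from 8989284 to 9076914. The library with most Ahnak, dcKO_Nex-Cre replicate 2, also had the highest summed level of 7 meningeal fibroblast markers, 84.4 CPM against 15.4 to 41.8 CPM in the other 7 libraries, and the part of the meninges in the Ahnak values was not tested.

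Anxa5, an annexin that binds phosphatidylserine on membranes, was at 18.4, 13.5, 17.4 and 20.4 CPM in the control and at 18.6, 19.2, 21.4 and 12.7 CPM in the dcKO_Nex-Cre libraries. Its log2 fold change was 0.048 (95% interval -0.31 to 0.41, adjusted p = 0.919 from edgeR), with overlapping groups. The estimate changed sign when control replicate 2 (-0.045) or dcKO_Nex-Cre replicate 3 (-0.043) was left out. Anxa5 (ENSMUSG00000027712) lies on chromosome 3 from 36448923 to 36475894.

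The 6 other S100 genes each had an estimate below 0, and none of them passed the test. Their median log2 fold change was -0.29, against 0.0043 over all genes tested, of which 49.1% had an estimate below 0. Among the 9 genes other than S100a10, 0 were called in either direction by edgeR at an adjusted p under 0.05, beside 0.510% lower and 0.375% higher among all genes. At an unadjusted p under 0.05 there was 1 lower gene, S100a16, and 0 higher genes, beside 7.05% lower and 6.59% higher among all genes. DESeq2's Wald test and limma-voom also called 0 of the 9. None of the 9 had groups that did not overlap, whereas among all genes 4.01% lay lower and 3.99% higher in every mutant library than in every control.

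S100a16, a broadly expressed S100 gene of brain tissue, had the highest level among the 6. It was at 42.8, 54.9, 38.6 and 52.4 CPM in the control and at 31.9, 37.5, 39.5 and 45.2 CPM in the dcKO_Nex-Cre libraries. The mutant libraries were lower on average, but replicates 3 and 4 lay above the lowest control. The log2 fold change was -0.29 (95% interval -0.58 to -0.0037, unadjusted p = 0.0476, adjusted p = 0.360 from edgeR).

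S100a6, calcyclin, was at 6.18, 10.7, 6.34 and 7.09 CPM in the control and at 5.04, 6.75, 6.15 and 6.01 CPM in the dcKO_Nex-Cre libraries. Control replicate 2 was highest, as it was for S100a10. The log2 fold change was -0.34 (95% interval -0.75 to 0.073, adjusted p = 0.447 from edgeR), and -0.12 was the smallest decrease when a library was left out.

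S100a1, which is known for binding calcium handling proteins in muscle and neurons, ranged from 12.4 to 16 CPM in the control and from 10.6 to 15.4 CPM in the mutant (log2 fold change -0.23, 95% interval -0.53 to 0.065, adjusted p = 0.468 from edgeR). S100a13, which takes part in the release of Fgf1 and Il1a proteins that lack a signal peptide, ranged from 5.36 to 6.30 CPM and from 4.72 to 6.57 CPM (log2 fold change -0.099, 95% interval -0.41 to 0.21, adjusted p = 0.780 from edgeR). These genes are neighbours on chromosome 3 whose starts face each other, S100a1 on the minus strand from 90514392 and S100a13 on the plus strand from 90514435. Both had their lowest mutant value in replicate 1 and their highest in replicate 4, as did S100a16 (31.9 and 45.2 CPM). Mutant replicate 1 had the most total counts of the 8 libraries and mutant replicate 4 the fewest. The part of depth in this order was not tested.

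S100a11, which binds annexin A1, and S100b, the glial calcium sensor, were the lowest of the S100 genes. S100a11 was at 2.41 to 2.92 CPM in the control and 1.68 to 2.61 CPM in the mutant, on 30 to 76 counts (log2 fold change -0.29, 95% interval -0.69 to 0.099, adjusted p = 0.485 from edgeR). Its value is uncertain, since 41.1% of the stretches of 50 bases in its transcript also occur in transcripts of other genes, whereas the other 9 genes had none. Those other genes are the processed pseudogenes Gm12854, with 3.62 counts per library on average, and Gm29240 and Gm7665, with 0 counts, beside 58.6 for S100a11. S100b was at 1.37 to 2.42 CPM in the control and 1.19 to 1.53 CPM in the mutant, on 22 to 55 counts (log2 fold change -0.48, 95% interval -1.01 to 0.040, adjusted p = 0.397 from edgeR). The intervals of both genes included 0.

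**Figure D2:**
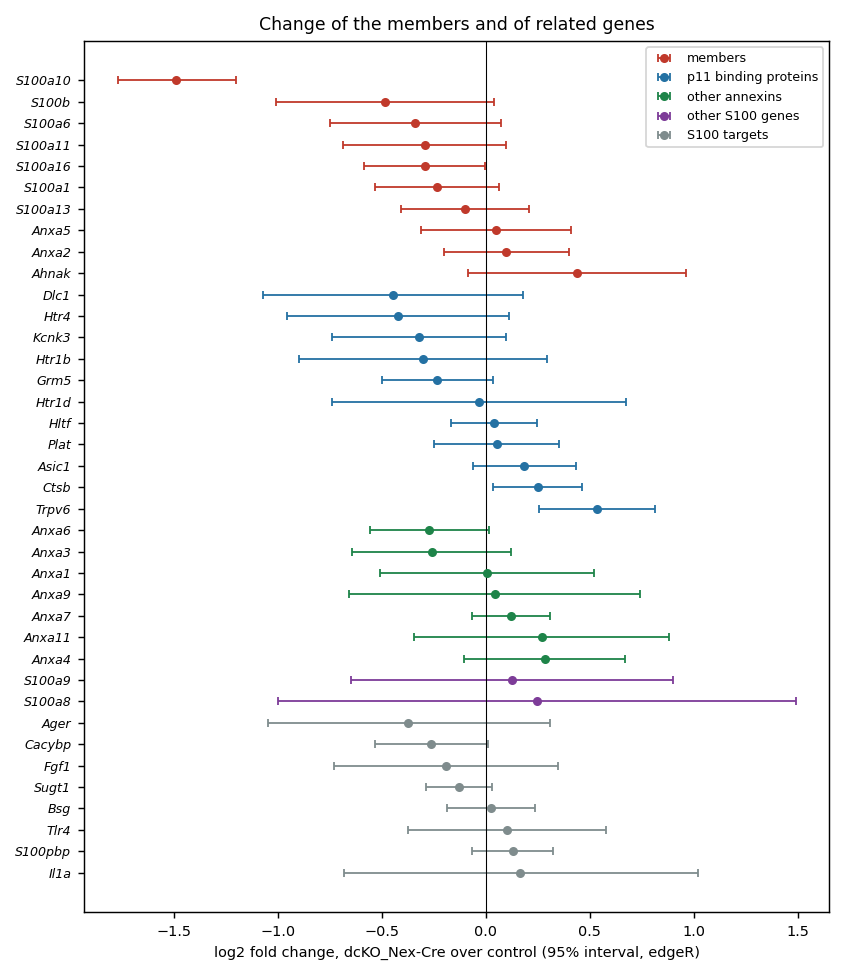
Log2 fold change of the dcKO_Nex-Cre over the control cortex with its 95% interval from edgeR, for the 10 genes and for the tested genes of the 4 lists of related genes. S100a10, the gene chosen by this value, is at -1.49, and the other 9 genes lie between -0.48 (S100b) and 0.44 (Ahnak).

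**Figure D3:**
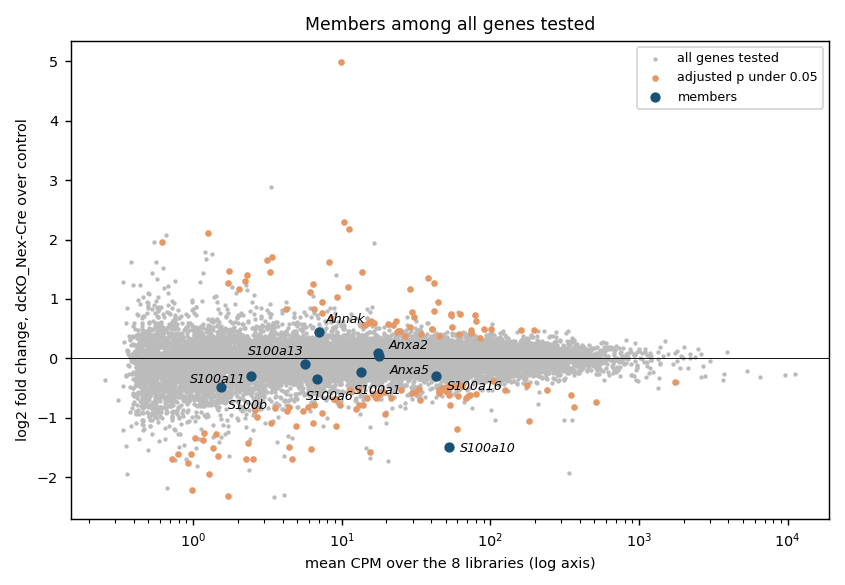
Log2 fold change against mean CPM over the 8 libraries (log axis) for all 16287 genes tested, with genes at an adjusted p under 0.05 in orange and the 10 genes in blue. S100a10 (-1.49) lies at the lower edge of the cloud, while the other 9 genes lie inside it, between -0.48 and 0.44.

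Levels were compared between genes as CPM per kilobase of exon, since the exons differ in length. In the control, S100a10 was highest at 56.0 to 83.1 CPM per kb, followed by S100a16 (23.9 to 34.0) and S100a1 (17.8 to 23.1), with no overlap between these neighbours. Anxa5 (7.61 to 11.5) came next, and from it through S100a13, S100a6 and S100a11 to Anxa2 (3.87 to 5.16) each gene overlapped the next in this order. S100b (0.926 to 1.63) and Ahnak (0.251 to 0.404) were lowest and did not overlap their neighbours. In the dcKO_Nex-Cre cortex S100a10 was at 21.3 to 25.5 CPM per kb, inside the range of S100a16 (19.7 to 27.9) and overlapping that of S100a1 (15.2 to 22.2). This rests on all annotated exons, of 1212 bases for S100a10, 1617 for S100a16 and 694 for S100a1. Their reference transcripts have 685, 1127 and 677 bases, which shortens S100a10 most. With these lengths S100a10 would lie higher against both genes, so the overlap in the mutant depends on the length used.

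S100a10 made up 45%, 50.3%, 46.3% and 42.8% of the summed CPM per kb of 16 S100 genes in control replicates 1 to 4. In dcKO_Nex-Cre replicates 1 to 4 its share was 29.3%, 28.8%, 25.4% and 23.4%. The summed level of the other S100 genes was 65.1 to 82.1 CPM per kb in the control and 52.8 to 70.1 CPM per kb in the mutant, with overlapping groups. These shares follow from the S100a10 values that chose the gene and are given as a description. They also rest on the length of all annotated exons and would differ with the lengths of single transcripts.

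**Figure D4:**
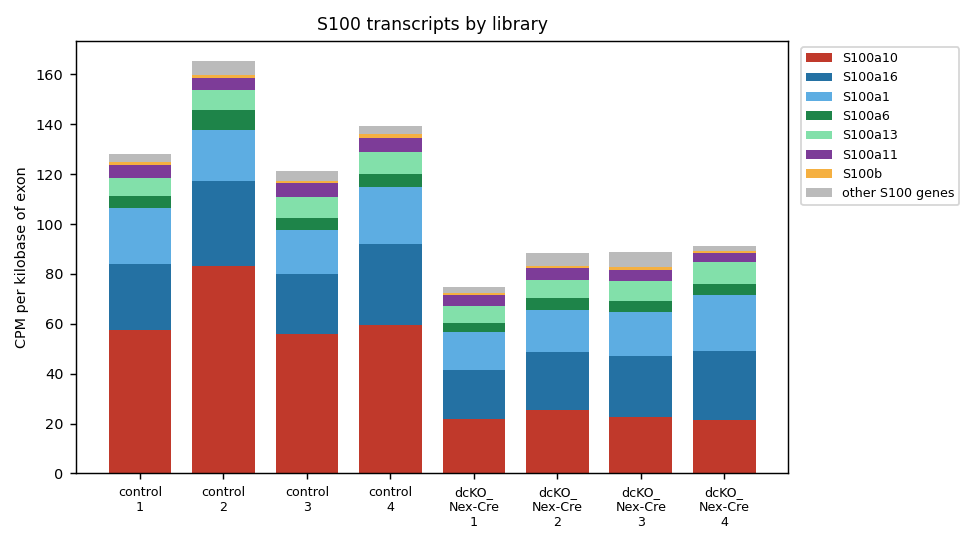
CPM per kilobase of exon of the S100 genes, stacked for each of the 8 libraries, with S100a10 at the bottom in red. The S100a10 share is 42.8% to 50.3% in the controls and 23.4% to 29.3% in the dcKO_Nex-Cre libraries, and the summed remainder overlaps between the groups.

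The S100a10 level per kb exceeded that of Anxa2 in every library. The ratio was 12.1, 21.5, 12.5 and 11.5 in the control and 4.25, 4.71, 4.25 and 5.84 in the dcKO_Nex-Cre libraries, or 14.4 ± 4.75 and 4.76 ± 0.75 (SD, n = 4). When both levels were taken over the length of the principal transcript in place of all annotated exons, the ratio was 9.88 ± 3.23 and 3.27 ± 0.52 (SD, n = 4). The ratios contain the S100a10 values that chose the gene and are given as a description. They concern transcripts and do not measure the proteins of the complex.

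S100a10 lies in a stretch of chromosome 3 that also holds 5 of the 6 other S100 genes, while S100b lies on chromosome 10. S100a11 is the nearest expressed neighbour, 28793 bases away. Tchhl1, Tdpoz2 and Tdpoz1, the other protein-coding neighbours on either side, had 0 counts in all 8 libraries. The coding sequences of the other S100 genes were 46.0% (S100a13) to 59.4% (S100b) identical to that of S100a10, and S100a11, the neighbour, was 57.6% identical. The share was taken over the full alignment with its gaps. It is thus lowered for S100a13 (483 bases) and S100a16 (375 bases), which are longer than the 294 bases of S100a10.

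The other S100 genes and annexins gave few measurable values. Of 9 further S100 genes, 2 were tested, and 0 passed at an adjusted p or at an unadjusted p under 0.05. S100a8 and S100a9, the calprotectin subunits of neutrophils, had log2 fold changes of 0.24 (adjusted p = 0.873 from edgeR) and 0.13 (adjusted p = 0.896 from edgeR), and the sign of both changed with limma-voom. S100a5 and S100g had 0 counts. Of 10 further annexins, 7 were tested and 0 passed at an adjusted p or at an unadjusted p under 0.05, with a median log2 fold change of 0.042. The shares over all genes were 0.510% lower and 0.375% higher at the adjusted threshold. At the unadjusted threshold they were 7.05% and 6.59%. Both lists are too small for 0 calls to set them apart from all genes. The highest were Anxa6, which was at 41.8 to 56.5 CPM in the control and 31.4 to 47.5 CPM in the mutant (log2 fold change -0.27, adjusted p = 0.385 from edgeR), and Anxa7, at 40.7 to 47.8 and 42.7 to 52.5 CPM (log2 fold change 0.12, adjusted p = 0.546 from edgeR).

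The genes of 14 proteins that p11 is reported to bind or regulate were then read, of which 11 were tested. They include serotonin receptors (Htr1b, Htr1d, Htr4), channels (Kcnk3, Trpv5, Trpv6, Scn10a, Asic1), the glutamate receptor Grm5, the proteases Ctsb, Plat and Plg, the chromatin factor Hltf and the GTPase regulator Dlc1. None was called by edgeR at an adjusted p under 0.05, beside 0.375% higher and 0.510% lower among all genes. At an unadjusted p under 0.05, 2 of 11 were higher and 0 lower, beside 6.59% and 7.05% of all genes. The median log2 fold change was -0.034. Htr1b, the receptor best known as a p11 partner and named here for that, was at 3.74 to 5.01 CPM in the control and 1.68 to 4.96 CPM in the mutant (log2 fold change -0.30, adjusted p = 0.637 from edgeR), with 0.075 within lane tag 2. Ctsb, the cathepsin with the highest level in the list, was at 290.0 to 390.0 CPM and at 387 to 448 CPM (log2 fold change 0.25, adjusted p = 0.298 from edgeR). Grm5 was at 144 to 182 CPM and at 109 to 157 CPM (log2 fold change -0.23, adjusted p = 0.418 from edgeR).

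Trpv6, a calcium channel that S100A10 and annexin A2 carry to the membrane, was singled out after its values were seen. It was at 7.10, 7.5, 7.01 and 6.83 CPM in the control and at 10.2, 9.58, 9.0 and 12.5 CPM in the dcKO_Nex-Cre libraries. Every mutant library lay above every control, and the log2 fold change was 0.54 (standard error 0.13, 95% interval 0.26 to 0.82). It missed the threshold in edgeR (adjusted p = 0.0874) and passed it with DESeq2's Wald test (adjusted p = 0.00892) and in edgeR without dcKO_Nex-Cre replicate 4 (adjusted p = 0.0424), with a range of 0.00892 to 0.266 over all alternatives. Without dcKO_Nex-Cre replicate 4, 619 genes were called lower and 659 higher of 16539 tested.

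Genes of 8 proteins that S100 proteins bind or help to release were all tested, and 0 were called at an adjusted p or at an unadjusted p under 0.05. Over all genes, 0.510% were lower and 0.375% higher at the adjusted threshold, and 7.05% and 6.59% at the unadjusted threshold. This list is too small for 0 calls to set it apart from all genes. Bsg, the basigin receptor of S100a9, was at 269 to 366 CPM in the control and 321 to 339 CPM in the mutant (log2 fold change 0.025, adjusted p = 0.928 from edgeR). Cacybp, the calcyclin-binding protein that S100a6 binds, averaged 207 ± 7.43 CPM in control and 173 ± 36.3 CPM in mutant libraries (SD, n = 4 each) (log2 fold change -0.26, adjusted p = 0.381 from edgeR). The Cacybp libraries dcKO_Nex-Cre replicates 1, 2 and 3 lay below all controls and replicate 4 above them, and without replicate 4 the log2 fold change was -0.41 (adjusted p = 0.0109 from edgeR). The fit without that library called 619 lower and 659 higher of 16539 genes tested.

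Marker lists for 11 cell types were summed per library and are given beside these genes. A sum is weighted toward the markers with the highest levels, and it does not count cells. The labelled tissue was checked against markers of projection neurons, which were present in every library and whose 6 genes summed to 743 to 830 CPM in the control and 651 to 890 CPM in the mutant. Of these, Emx1 was called lower, at 18.5 to 25.0 CPM in the control and 13.6 to 14.9 CPM in the mutant (log2 fold change -0.60, adjusted p = 0.0332 from edgeR). The 6 layer 5 markers, whose cell class S100a10 is known to mark, summed to 367 to 388 CPM in the control and 272 to 425 CPM in the mutant, with overlapping groups. Among them 0 passed at an adjusted p under 0.05 in edgeR and 3 of 6 were lower at an unadjusted p under 0.05, beside 7.05% of all genes, and the list's median log2 fold change was -0.26. Ldb2 and Pcp4, the layer 5 markers with the highest levels per kb, had log2 fold changes of -0.24 (adjusted p = 0.249 from edgeR) and -0.28 (adjusted p = 0.339 from edgeR). Bcl11b was at 137 to 172 CPM in the control and 101 to 250 CPM in the mutant (log2 fold change 0.067, adjusted p = 0.92 from edgeR). Its 250 CPM belonged to dcKO_Nex-Cre replicate 2, the library with the highest layer 5 sum. Etv1 and Rbp4 had log2 fold changes of -0.11 (adjusted p = 0.782 from edgeR) and -0.36 (adjusted p = 0.687 from edgeR). Fezf2, the layer 5 identity factor, which was singled out after its values were seen, was at 53.5 to 77.5 CPM in the control and 35.0 to 52.0 CPM in the mutant, without overlap (log2 fold change -0.55, adjusted p = 0.149 from edgeR), and it passed the threshold with DESeq2's Wald test (adjusted p = 0.0331) and with the replicate block (0.0493), in a range of 0.0331 to 0.38 over all alternatives. The part of layer 5 cell number in the S100a10 values was not tested.

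Markers of the cells in which Anxa2, Ahnak, Anxa5 and the low S100 genes are known to be high had summed levels that overlapped between the groups in each list, while single markers did not always overlap. Endothelial markers, with Cldn5 and Kdr highest per kb, summed to 105 to 160 CPM in the control and 133 to 178 CPM in the mutant, and mural markers, with Rgs5 and Pdgfrb highest per kb, to 159 to 216 and 155 to 176 CPM. Astrocyte markers, with Aldoc and Slc1a3 highest per kb, summed to 881 to 1300 and 964 to 1560 CPM, and microglial markers, with C1qa and P2ry12 highest per kb, to 72.2 to 84.6 and 64.8 to 91.0 CPM. None of these 4 lists, nor that of meningeal fibroblasts, had a gene past the adjusted threshold in edgeR with all libraries. P2ry12, a microglial purine receptor, was at 11.7 to 12.4 CPM in the control and 6.96 to 9.3 CPM in the mutant, without overlap (adjusted p = 0.0596 from edgeR), and passed with DESeq2's Wald test (0.00179) and without the filter (0.047). The mural marker Rgs5 also passed with DESeq2's Wald test (adjusted p = 0.0317). Without dcKO_Nex-Cre replicate 4, edgeR called Gfap, Slc1a2, Flt1 and C1qa higher and Rgs5 and P2ry12 lower, with adjusted p from 0.0208 to 0.043. That fit called far more genes of any kind, 619 lower and 659 higher of 16539 tested. With all libraries 83 were lower and 61 higher of 16287, so calls from that fit are not read as changes of a cell type. The 6 markers of the oligodendrocyte lineage summed to 189 to 272 CPM in the control and 266 to 324 CPM in the mutant. Of them Cspg4, a surface proteoglycan of oligodendrocyte precursors and pericytes, was called higher, at 16.2 to 18.7 CPM in the control and 22.1 to 29.9 CPM in the mutant (log2 fold change 0.56, adjusted p = 0.0355 from edgeR). Sox10 was higher in every mutant library, at 13.4 to 18.7 CPM against 9.8 to 13.2 CPM, and was called without dcKO_Nex-Cre replicate 4 (adjusted p = 0.0485 from edgeR). The calls of Emx1 and Cspg4 were lost when any library other than dcKO_Nex-Cre replicate 4 was left out, with adjusted p from 0.0533 to 0.14, and with the replicate block (0.0817 and 0.0985). That of Emx1 was also lost within lane tag 2 (adjusted p = 0.0566). Ependymal markers summed to 18.6 to 22.3 and 14.6 to 33.6 CPM and blood markers to 82.6 to 138 and 81.8 to 185 CPM. Choroid plexus markers varied most, from 16 to 1330 CPM in the control and from 3.54 to 552 CPM in the mutant, most of it Ttr. None of these 3 lists had a gene past the threshold with all libraries, and Foxj1 of the ependymal list passed without dcKO_Nex-Cre replicate 4 (adjusted p = 0.0171 from edgeR).

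**Figure D5:**
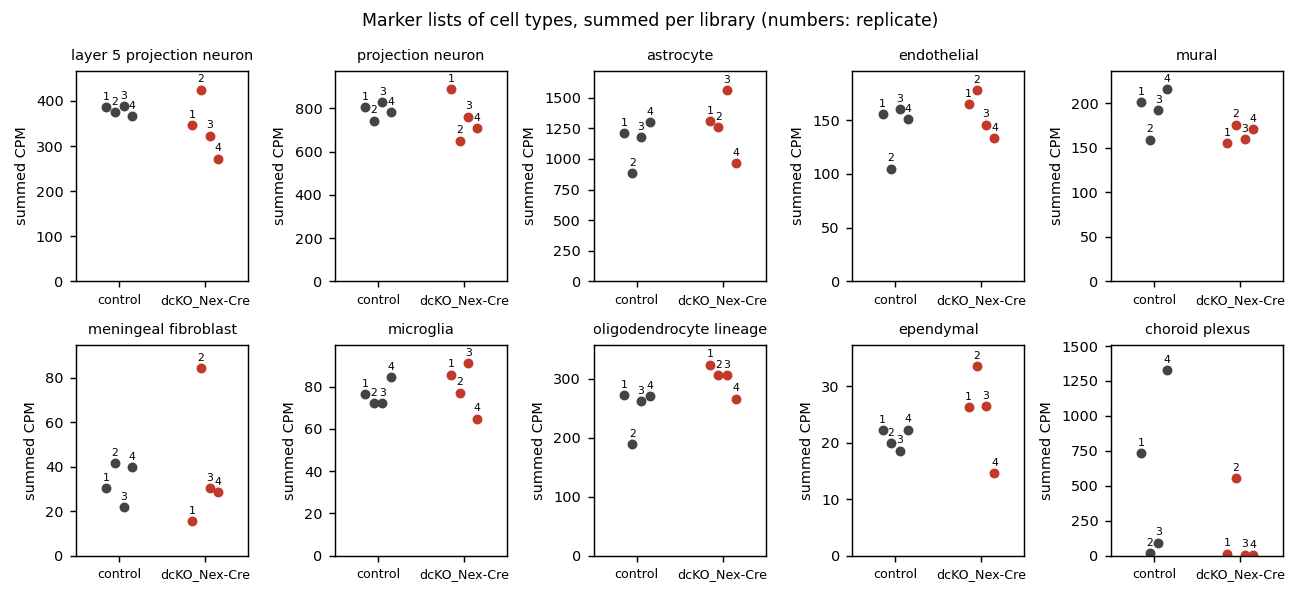
Summed CPM of marker lists of cell types in each library, control in grey and dcKO_Nex-Cre in red, with the replicate number beside each point. The layer 5 sum overlaps between the groups (367 to 388 CPM in the control and 272 to 425 CPM in the mutant), control replicate 2 is lowest for endothelial markers and dcKO_Nex-Cre replicate 2 is highest for meningeal fibroblast markers.

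The variation of S100a10 within the groups was described by the Pearson correlation of log2 CPM after the group means were taken out, over the 8 libraries, which share their scaling and depth. The 5 genes most like it among 12042 genes with at least 100 counts on average were Pan3 (0.973), Trerf1 (0.966), Kcnh4 (0.965), Cnot6l (0.959) and Fndc3b (0.957). None of the 5 was called in either direction by edgeR, and the means of Pan3 were 45.8 ± 6.27 CPM in the control and 52.0 ± 3.61 CPM in the mutant (SD, n = 4). Without control replicate 2 the coefficients were 0.785 for Trerf1, 0.788 for Kcnh4, 0.813 for Cnot6l, 0.893 for Pan3 and 0.945 for Fndc3b. Among the 9 genes, S100a6 was most like S100a10 (0.939, and 0.705 without control replicate 2), followed by Ahnak (0.768 and 0.854). Without that library Anxa2 changed from -0.199 to 0.659, Anxa5 from -0.326 to 0.548 and S100a11 from -0.0645 to 0.756, so that the sign for these 3 genes and the order of the 9 rested on control replicate 2.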

How the data were processed

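Total RNA of whole P1 cortex was isolated with TRIZOL, and libraries were made with the Illumina TruSeq RNA v2 kit, which does not mark the strand. The authors deposited a table of whole-number counts by Ensembl identifier for each of 8 libraries, with no normalization. The aligner, the counting program and the annotation are not given in the sources used here, and the processing notes name the build mm10. Of 48709 genes, 48349 were matched by identifier to GENCODE M21 for positions and lengths.

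The test, taken on both sides, was edgeR's robust quasi-likelihood F test (edgeR 4.0.16 in R 4.3.3) after filterByExpr and TMM, with group as the only term, with Benjamini-Hochberg adjustment over 16287 genes and a threshold of 0.05. Depth was 17958641 to 35191912 counts per library, and the biological coefficient of variation was 0.143. Intervals are 95% intervals from the same fit. Alternatives were DESeq2 1.42.0 size factors and its Wald test, limma-voom (limma 3.58.1), no filter, at least 10 counts in every library, the replicate number as a block, lane tag 2 only (tags read from the names of the deposited tables) and 8 fits without 1 library each. The correlation without control replicate 2 was added after the data were seen. The fit was tested on simulated counts.

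The 10 genes and the lists were chosen with earlier results of these data known. Named were the 10 genes, Smarcc1 and Smarcc2, from each list the genes past the threshold and the 2 with the highest control level per kb, the 2 nearest protein-coding genes on each side of S100a10, and the 5 genes most like it. Markers of the 11 cell types are given as summed CPM per library.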

Additional observations from a re-analysis of the deposited data

Results flagged for a closer look

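In groups of 4 libraries, a library stood apart from the others by Dixon's criterion in 12 of 104 groups tested. Of these, 3 belong to genes named for following S100a10 within the groups, and among the other 94 groups there were 9, where chance at 1 in 20 gives about 4.7. S100a10, Anxa2 and S100b were among these and belong to the set around p11. For S100a10, control replicate 2 reached 101 CPM against 67.9 to 72.2 CPM in its group. For Anxa2, mutant replicate 4 had 13.6 CPM, below the 19.2 to 20.2 CPM of its group. For S100b, mutant replicate 3 had 1.53 CPM, above the 1.19 to 1.23 CPM of its group.

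Control replicate 2 was lower than the other controls for the endothelial receptor Kdr (23.7 against 34.1 to 36.3 CPM), the pericyte receptor Pdgfrb (20.9 against 29.2 to 30.2 CPM) and Olig2 of the oligodendrocyte lineage (27.9 against 38.9 to 40.2 CPM). It was higher for Pan3 (55.1 against 41.9 to 44.1 CPM) and Trerf1 (38.8 against 27.2 to 28.5 CPM), but both were named for following S100a10, which was itself highest in this library, so that their values add nothing independent. Control replicate 2 also had the highest mitochondrial share of the 8 libraries, 6.87%, followed by mutant replicate 4 at 6.15%.

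Mutant replicate 2 stood apart from the other dcKO_Nex-Cre libraries for 4 genes, at 7.86 CPM for the meningeal gene Ogn (4.94 to 5.28 CPM in the others), 543 CPM for the choroid plexus gene Ttr (2.86 to 12.4 CPM), 2.87 CPM for Folr1 (0.168 to 0.495 CPM) and 65.0 CPM for Cnot6l (57.8 to 58.7 CPM). The part of these differences in the results was not tested, apart from the fits without each library.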

How the results depend on the processing

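S100a10 kept a log2 fold change between -1.55 and -1.33 in 15 alternatives, and 0 of the 9 other genes passed the threshold in any of them. All 6 other S100 genes kept estimates below 0 and Anxa2 and Ahnak kept estimates above 0 in these fits. Counts over all genes moved far more than these values. Of 83 lower and 61 higher genes, DESeq2's Wald test gave 279 and 215, no filter 150 and 109, and lane tag 2 108 and 140. Leaving out a library gave 9 to 619 lower and 9 to 659 higher genes, with both maxima without dcKO_Nex-Cre replicate 4. The p11 binding list had 1 gene past the threshold with DESeq2's Wald test and the S100 target list 1 within lane tag 2, and both had 0 to 1 when a library was left out. With the replicate number as a block there were 33 lower and 21 higher genes, and S100a10 was at -1.47. Samples with the same number had correlations of -0.138 to 0.135 in their deviations, inside the -0.292 to 0.371 of samples with different numbers. The labels do not say whether the numbers pair samples, and these correlations cannot exclude it. Signs changed for S100a9 with limma-voom (-0.013) and for S100a8 with limma-voom (-0.023) and within lane tag 2 (-0.083), and within lane tag 2 also for Bsg (-0.0016) and Htr1b (0.075). When a library was left out, Anxa5 ranged from -0.045 to 0.18, S100a9 from -0.13 to 0.34, S100a8 from -0.37 to 0.55 and Bsg from -0.046 to 0.089. The causes of these changes were not tested. Depth limits S100b and S100a11 most among the 10 genes, with at most 76 counts per library, and S100a8 and S100a9 had at most 50.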
